A study of Danio rerio with 8 samples.

Results

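The hearts described here are the 3 control libraries made from zebrafish hearts at 21 days post fertilisation (dpf), 3 of 8 libraries in the study. They were chosen by their labels alone, tissue heart, stage 21 dpf and genotype control, so no measured value entered the choice. The fish are of the TU strain, a laboratory wild-type line, and the labels say no more of the control genotype and name no treatment. They do not say whether a library came from 1 animal, from pooled hearts or from separate fish, so the spread between libraries may be partly technical. The study as a whole asked which genes act downstream of zfpm1, which encodes a FOG cofactor of GATA factors, and the mutant hearts are not compared here. No test is made, since there is 1 group of 3 libraries.

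The zebrafish heart has a single atrium and a single ventricle, and at this age it is a small, growing, beating heart. Its muscle cells are packed with sarcomeres, the repeating units of myosin thick filaments and actin thin filaments, and are driven by calcium that enters through L-type channels and is released from the sarcoplasmic reticulum. Around and between them lie endocardium, valves, epicardium, fibroblasts and smooth muscle of the outflow tract, and the chambers hold nucleated red cells. An ancient genome duplication left zebrafish with paired copies of many genes, so a human cardiac gene often has more than 1 zebrafish paralog.

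Poly(A)-selected RNA was sequenced and reads were counted per gene. Gene counts were 8741419, 9632464 and 8197337 in replicates 1, 2 and 3, and sets of 3 values are given in that order throughout. Levels are CPM, a gene's counts scaled to a common library size, so 3 counts equal 0.343, 0.311 and 0.366 CPM. No transcript lengths were at hand. A CPM or a share therefore says how many counts a gene held, and a long transcript collects more of them than a short one. Gene symbols come from a name table that spells many genes in human capitals, and an Ensembl ID follows where a symbol stands for several genes.

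Replicate 1 stands apart from the others on paper. The total of all lines in its file is 22649056, with 2907502 reads not uniquely aligned, and the file labelled as a 36 hours post fertilisation (hpf) zfpm1 mutant embryo has the same 2 totals. In the same way, replicate 1 of the zfpm1 mutant hearts and the file labelled as a 36 hpf control embryo share a total of 19276348 with 2130930 not uniquely aligned, so the labelled genotypes differ within both pairs. Over 9072 genes control heart replicate 1 held a median of 0.504 counts for each count in the mutant embryo file, and 93.1% of the genes lay between 0.4 and 0.6. Only some of the genes outside that range are marked below. Among those used without a mark are MT-ND6 at 0.956, aurka at 0.311 and nfil3-5 at 0.389. Which label is right was not tested, and results are given with and without replicate 1 where it moves them.

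Counts were concentrated in few genes. The 10 genes with the highest mean CPM held 14.2% ± 0.719 of all gene counts (SD, n = 3), the top 100 held 37.9% ± 0.870, and 264 genes held 50%. Without replicate 1 the same 10 genes held 13.8% and the same 100 genes 37.9%. Of 31953 gene IDs, 16062 had a mean of at least 1 CPM, 1369 at least 100 and 115 at least 1000, while 8352 had no count in any library.

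Respiration and contraction filled the top of the ranking. The 13 protein-coding genes of the mitochondrial genome held 13.3%, 9.17% and 9.38% of counts, and 9 of them were among the 30 highest genes. MT-CO1, the core subunit of cytochrome oxidase, was the highest gene at 39434, 27546 and 28040 CPM. MT-CO3 had 16797.5, 14268 and 12915 CPM and MT-CYB, the cytochrome b of complex III, 17061, 11913 and 13657 CPM. Of the 13 genes, 12 were highest in replicate 1, or 11 when libraries were scaled by the trimmed mean of M values (TMM), where 40% of all genes with a mean of at least 1 CPM were highest there under CPM. The nuclear genes of oxidative phosphorylation, 105 IDs found by symbol, held a further 3.54%, 4.01% and 3.50%, with less spread.

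Next to them stood the sarcomere. MYH7 (ENSDARG00000079782), a cardiac myosin heavy chain, was the second gene with 24950.1, 12701 and 16007 CPM, and its value in replicate 1 was well above the others. MYL7, the regulatory light chain that marks zebrafish heart muscle, had 12002, 10439 and 10456 CPM, almost the same in all 3. The essential light chain cmlc1 had 7024, 9219 and 7383 CPM, the actin actc1a 6297, 8715 and 6666 CPM, and the tropomyosin tpm4a 6207, 6915 and 6190.2 CPM. All of these thin and thick filament genes were among the 18 highest, and apart from MYH7 their values lay within a factor of 1.5. Another heavy chain among the 18, MYH6 (ENSDARG00000079564), ranged beyond that factor, with 7578, 4643 and 6025 CPM.

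The other leading genes serve energy and protein supply or belong to blood. SLC25A5, the carrier that exchanges ADP and ATP across the inner mitochondrial membrane, had 7616, 9430 and 7685 CPM. Myoglobin (mb), which stores oxygen in muscle, had 7882, 6524 and 5709 CPM, and the glycolytic enzyme GAPDH 4518, 5192 and 4186 CPM. The translation factor eef1a1l1 had 6501, 10859 and 8237 CPM, lowest in replicate 1. Cytosolic ribosomal protein genes, 94 IDs found by symbol, followed the same order of libraries with 4.97%, 9.13% and 6.74% of counts. The globins hbae5 and HBE1 (ENSDARG00000045143) were the seventh and ninth genes. Of the 30 highest genes, 28 stayed among the 30 highest without replicate 1, and 29 without replicate 2 or without replicate 3.

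Of the top 30, 3 IDs have a provisional name or none. The first pair, zgc:158463 and si:dkey-153m14.1, held 0.0445%, 1.42% and 3.65% of counts together. At 206, 7982 and 20868 CPM, zgc:158463 ranged more widely than any named gene of the top 30. The name table does not say what these IDs encode.

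**Figure D1:**
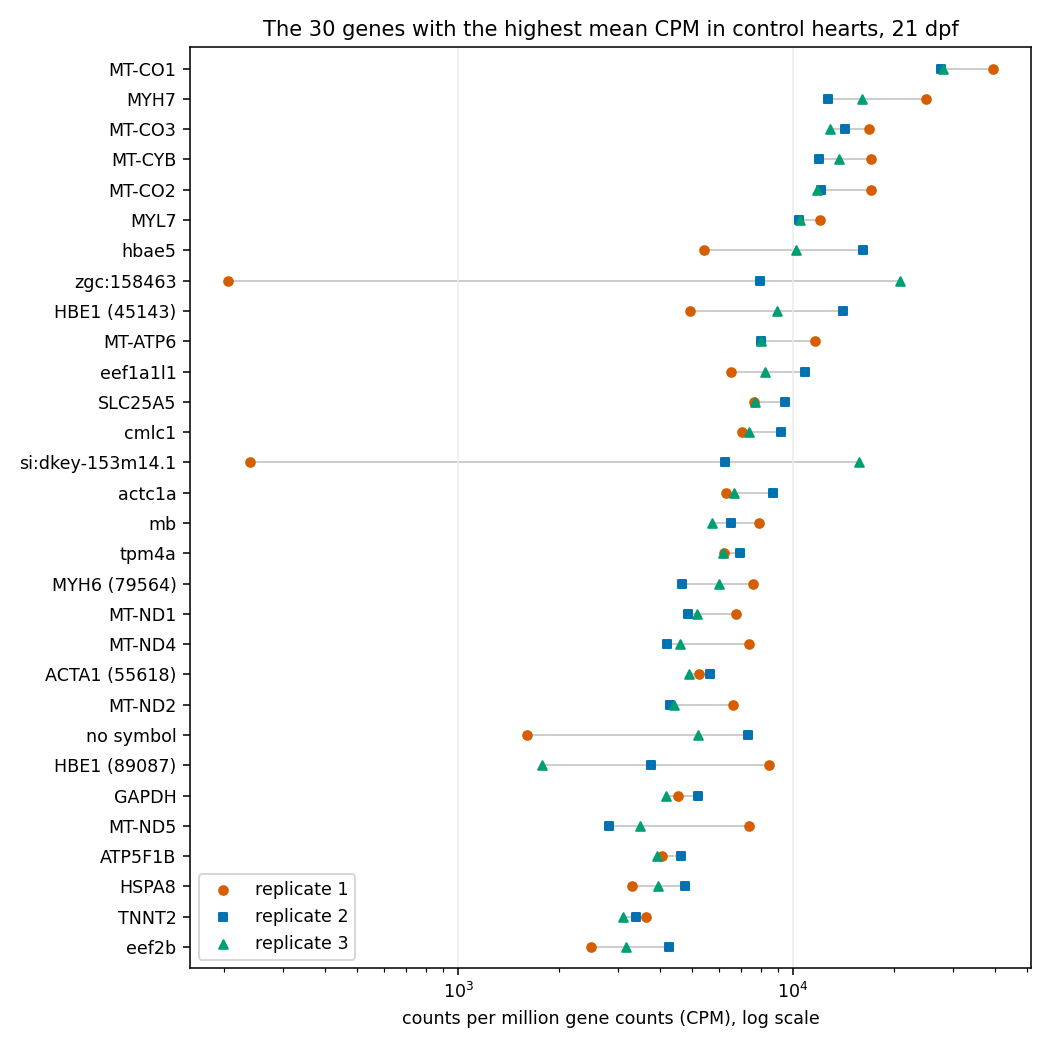
CPM on a log axis for the 30 genes with the highest mean over the 3 control heart libraries, highest at the top. Each point is 1 library and the grey line joins the lowest and highest. MT-CO1 leads at 27546 to 39434 CPM, most sarcomere genes cluster tightly, and zgc:158463 spreads from 206 to 20868 CPM.

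Summed over their lists, fuel-burning pathways beyond the respiratory chain varied little between libraries. Genes of glycolysis held 1.79%, 1.95% and 1.79% of counts (37 IDs), the tricarboxylic acid cycle 1.17%, 1.13% and 1.12% (24 IDs), and fatty acid oxidation 0.611%, 0.556% and 0.576% (35 IDs). IDH2, which makes mitochondrial NADPH, led the tricarboxylic acid cycle with 2214, 2561 and 2316 CPM. ACADVL, the very long-chain acyl-CoA dehydrogenase, had the highest mean of the fatty acid list with 1143, 809 and 901 CPM, followed by HADHB, a subunit of the trifunctional protein, with 786, 881 and 862 CPM. Without replicate 1 HADHB was the higher, at 871 against 855 CPM for ACADVL, and ACADVL held 0.746 counts for each count in the file with the same totals. The median distance between the highest and lowest library, on the log2(CPM + 0.5) scale, was 0.31 for glycolysis, 0.30 for the tricarboxylic acid cycle and 0.29 for fatty acid oxidation. Over all 9146 genes with a mean of at least 10 CPM it was 0.47.

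Marker lists gave the cell types in the sample. Each list's share is the sum of the CPM of its genes, and lists share some members. In bulk tissue fewer cells of a type and less RNA per cell cannot be told apart. The cardiomyocyte list of 39 IDs held 6.72%, 6.08% and 6.03% of counts, or 6.06% without replicate 1, and 37 of its IDs had a mean of at least 1 CPM. It contains the lower-case myh6 (ENSDARG00000090637) but not MYH7 (ENSDARG00000079782) or MYH6 (ENSDARG00000079564). The list's entries vmhc and vmhcl had no match in the name table. The leading members of the list were MYL7, cmlc1 and actc1a. These defining genes of heart muscle were high in every library.

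Both chamber lists held counts. The atrial list held 0.442%, 0.330% and 0.353% of counts and was led by nppa, the natriuretic peptide gene, with 3450.0, 2853 and 2823 CPM. Most of that share was nppa, which is also in the cardiomyocyte list. The next atrial member, myh6 (ENSDARG00000090637, in lower case), carries the zebrafish symbol of the atrial myosin heavy chain and had 422, 195 and 329 CPM. The ventricular list held 2.51%, 1.28% and 1.61%, nearly all of it MYH7. Its entries vmhc, vmhcl and myh7l had no match. MYH6 (ENSDARG00000079564), with 7578, 4643 and 6025 CPM, is in neither chamber list, and its chamber was not assigned. The ventricular list's transcription factors IRX1 (ENSDARG00000101831) and HEY2 had 58.0, 76.2 and 64.8 CPM and 47.1, 56.2 and 57.7 CPM. The ID named irx4b had 0 counts in all 3 libraries. Pacemaker and conduction genes were scarce, 0.0129%, 0.00963% and 0.0131% in all. Their list includes TBX18, which is also in the epicardial list, at 65.3, 45.2 and 60.8 CPM. The pacemaker channel HCN4 (ENSDARG00000061685) had 4.69, 0.519 and 1.59 CPM.

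Red cells gave the second largest list. Its 36 IDs held 3.40%, 5.19% and 3.46% of counts, of which 14 globin IDs held 2.57%, 4.40% and 2.74%. The other 22 IDs, red cell enzymes, transporters and membrane proteins, held 0.825%, 0.795% and 0.717%. Among them cahz, a carbonic anhydrase, had 2269.5, 2605 and 2093 CPM, and the anion exchanger SLC4A1 (ENSDARG00000012881) had 1824, 1933 and 1673 CPM. The non-globin share varied far less than the globin share.

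The connective and vascular lists were smaller. Fibroblast and mural genes (30 IDs) held 0.538%, 0.537% and 0.579%, led by fibronectin FN1 (ENSDARG00000006526) with 1646, 1289 and 1705 CPM and col1a1a with 364, 497 and 481 CPM. Endothelium and endocardium (41 IDs) held 0.361%, 0.26% and 0.314%, led by von Willebrand factor (vwf) with 471, 441 and 499 CPM and VE-cadherin (cdh5) with 513, 237 and 349 CPM. Smooth muscle and outflow tract genes held 0.225%, 0.183% and 0.208%, and the valve list 0.138%, 0.135% and 0.149%. Periostin POSTN (ENSDARG00000104267), a matrix protein of valves and fibroblasts, had 291, 432 and 360 CPM. The epicardial list held 0.118%, 0.176% and 0.161%, with ALDH1A2, which makes retinoic acid, at 206, 296 and 332 CPM and TCF21 at 48.3, 72.7 and 76.1 CPM. Its top member, the keratin krt4, is also in the skin list. The fibroblast IDs named FBLN1 and PDGFRB, and 1 of the IDs named HAPLN1 in the valve list, had 0 counts in every library, while the other HAPLN1 ID had 154, 120 and 136 CPM.

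The matched immune and nerve genes held few counts. Among the entries without a match in the name table were mpx (neutrophil) and cd3ea, cd3eb and trac (lymphocyte). Also unmatched were gp1ba and pf4 (thrombocyte) and sypa and vamp1 (neuron), so the shares leave these genes out. Macrophage and monocyte genes held 0.0884%, 0.122% and 0.0945%, led by lgals2a and the scavenger receptor marco, which had 99.8, 93.3 and 68.6 CPM. Neutrophil genes held 0.0200%, 0.0262% and 0.0254%, thrombocyte genes 0.0143%, 0.0129% and 0.0151%, and neuronal genes 0.00805%, 0.00782% and 0.0112%. Lymphocyte genes held 0.00210%, 0.00353% and 0.00226%. Of 21 lymphocyte IDs 7 reached a mean of 1 CPM, and ighd and cd8a had 0 counts in all 3. Schwann cell and pigment cell lists held less than 0.003% in each library, and FOXD3 and EGR2 were at 0.

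Markers of organs outside the heart were present too. The skeletal muscle list held 1.24%, 1.53% and 1.26%. Its 5 highest IDs by mean CPM (2 IDs named ACTA1, ckma, nme2b.2 and ENO3) held 1.12%, 1.23% and 1.04%. Whether heart or skeletal muscle gave these counts was not tested. The other 33 IDs held 0.123%, 0.307% and 0.216%. Skin and gill epithelium held 0.237%, 0.499% and 0.385%, led by krt8 with 1515, 2252 and 2064.5 CPM, and liver genes 0.0499%, 0.0444% and 0.0435%. The intestine and pancreas list held 0.00194%, 0.0439% and 0.0180%. Its FABP6, sst2 and pdx1 were at 0. The part these tissues play in the differences between libraries was not tested.

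**Figure D2:**
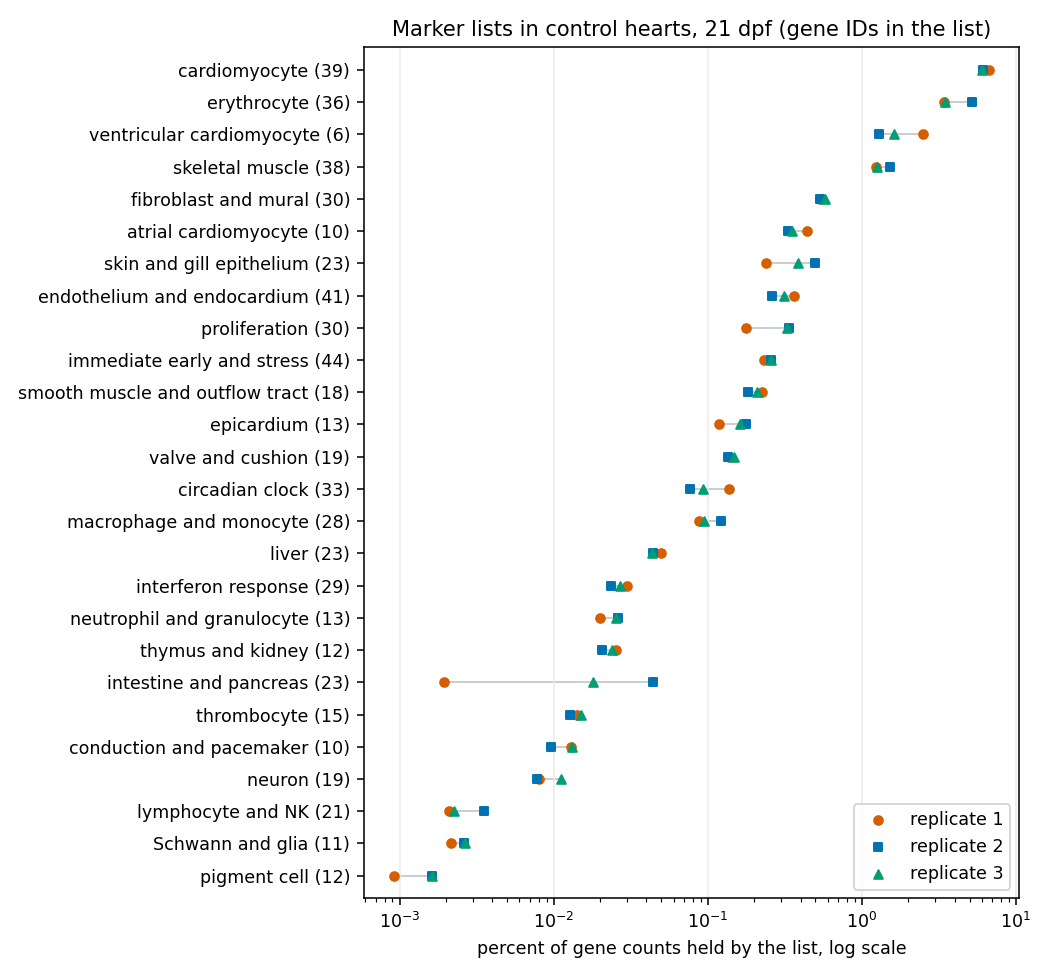
Percent of gene counts held by each of 26 marker lists on a log axis, with the number of gene IDs in parentheses. Each point is 1 library. The cardiomyocyte list leads at 6.03% to 6.72%, erythrocyte genes follow at 3.40% to 5.19%, and the intestine and pancreas list spreads most, from 0.00194% to 0.0439%.

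Paralogs were compared within 53 families, of which 52 have at least 2 IDs in the table. A paralog's share is its percent of the family's counts, without a correction for length. In 27 of the 52 families 1 ID held at least 75% of the counts in each library, and in 18 it held at least 90%. The median share of the leading ID was 79.0%. The leading ID was the same in all 3 libraries in 45 families and changed in 7. Without replicate 1 it changed in 1.

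Most thin and thick filament families rested on 1 gene. TNNT2 (ENSDARG00000020610), the troponin that anchors the complex to tropomyosin, held 96.7% ± 1.66 of troponin T counts, and tnnc1a held 95.4% ± 3.06 of troponin C. The essential light chain cmlc1 held 96.6% ± 1.14, tpm4a 94.3% ± 0.106, MYL7 91.3% ± 0.862 and the thick filament regulator MYBPC3 98.3% ± 0.556 (all SD, n = 3). Of the Z-disc genes, actn2b held 94.6% ± 0.332 of alpha-actinin counts, and DES (ENSDARG00000058656), the intermediate filament around the Z-disc, 99.8% ± 0.0833. In troponin T and troponin C fast skeletal paralogs held most of the small remainder. TNNT3 (ENSDARG00000068457) took 1.22%, 4.29% and 3.14% of troponin T, and TNNC2 took 1.18%, 6.22% and 3.34% of troponin C.

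Myosin heavy chain, actin, troponin I and titin were shared. MYH7 (ENSDARG00000079782) held 70.8% ± 1.56 and MYH6 (ENSDARG00000079564) 24.6% ± 2.3, while myh7ba, myh7bb and the lower-case myh6 each held 1.2% to 1.9% on average. The actins divided into actc1a with 45.4% ± 2.25, ACTA1 (ENSDARG00000055618) with 33.3% ± 2.75 and ACTC1 (ENSDARG00000057911) with 10.6% ± 1.3. That ACTA1 ID held 0.761 counts for each count in the file with the same totals. TNNI1 (ENSDARG00000052708), which carries the human symbol of slow skeletal troponin I, led troponin I with 69.1% ± 0.419. Next came tnni4a with 27.6% ± 0.639, and this split hardly moved between libraries. The titin pair did move. TTN (ENSDARG00000028213) held 62.0%, 76.9% and 63.7%, and TTN (ENSDARG00000000563) the rest. FLNC (ENSDARG00000018566), a filamin that links actin to the Z-disc, held 77.8% ± 0.579 and its paralog the rest. The Z-disc adaptor pair ldb3a and ldb3b held 65.5% ± 2.43 and 34.5% ± 2.43.

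**Figure D3:**
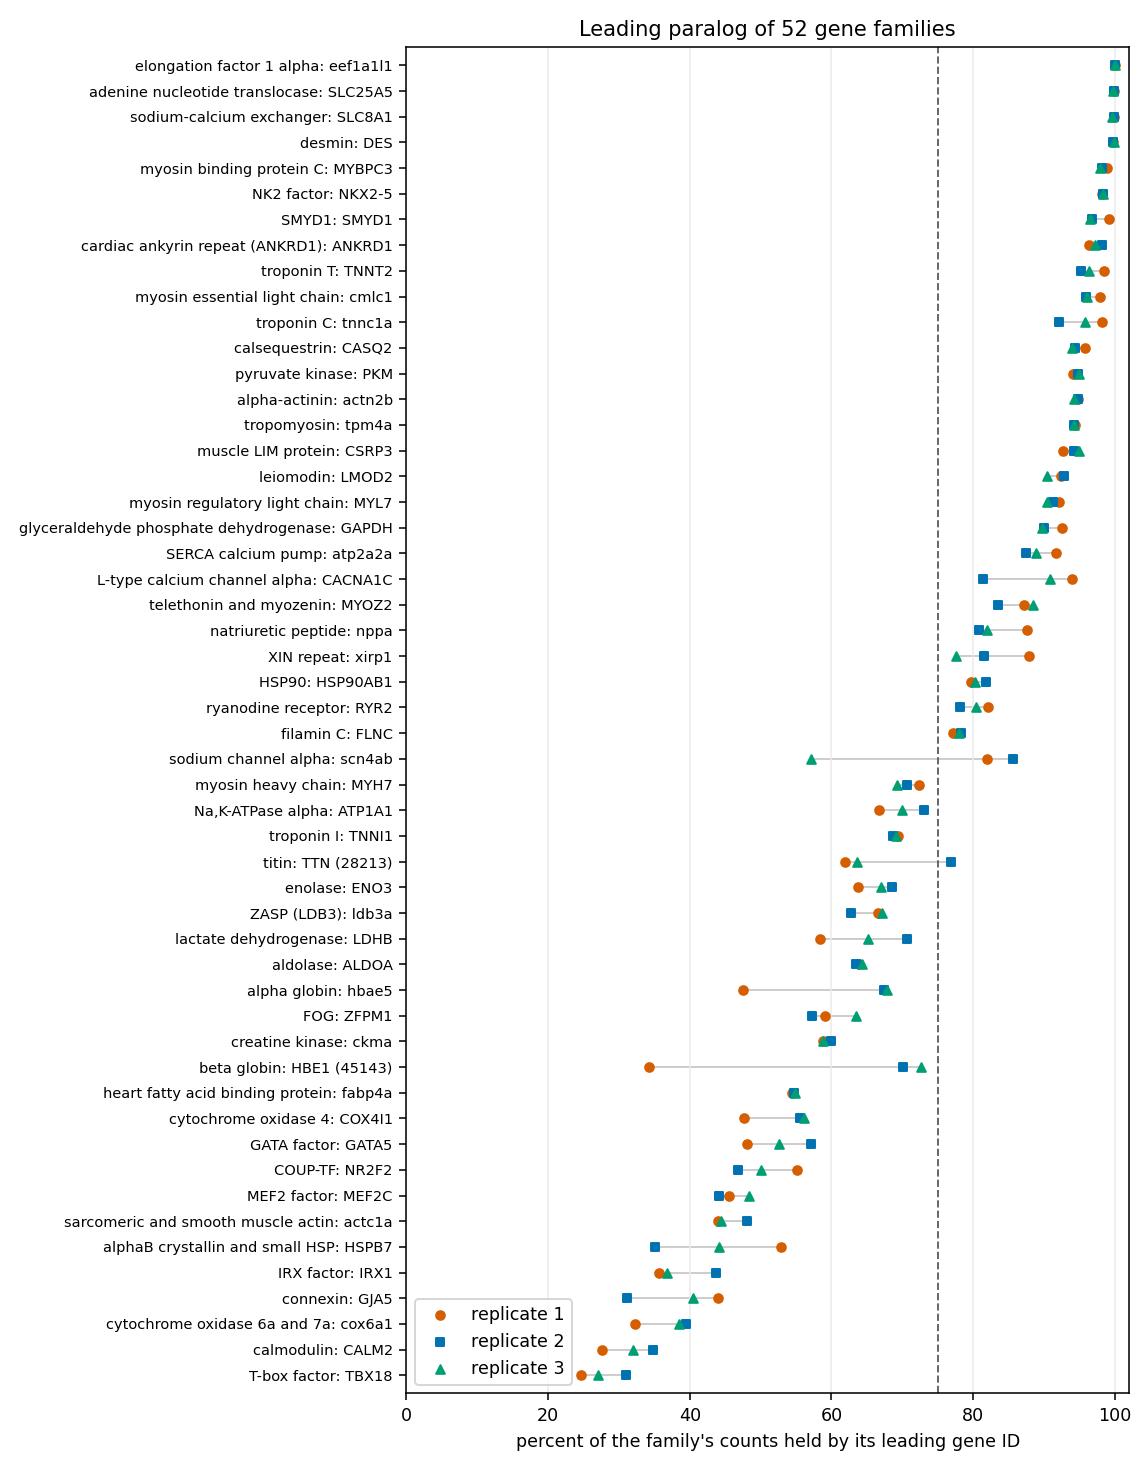
Percent of a family's counts held by its leading gene ID in each library, for 52 families ordered by the mean. The dashed line marks 75%. Elongation factor 1 alpha, the nucleotide carrier and the sodium-calcium exchanger lie at the top near 100%, and the beta globin family spans from 34.3% to 72.7%.

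Most calcium-handling families that were matched rested on 1 paralog. Phospholamban and sarcolipin (pln, plna, plnb and sln) had no match in the name table and are missing here. SLC8A1 (ENSDARG00000013422), the exchanger that removes calcium from the cell, held 99.8% ± 0.140 of its family at 3284, 1312 and 1811 CPM. The calcium pump atp2a2a held 89.4% ± 2.16 at 2106, 1719 and 1869 CPM, and the calcium store protein CASQ2 94.7% ± 0.919 at 740.5, 706 and 712 CPM. RYR2, the release channel of heart muscle, held 80.2% ± 1.98, with RYR3 at 13.7% ± 1.2. CACNA1C, the pore of the cardiac L-type channel, held 93.9%, 81.3% and 90.9%. Among the 6 sodium channel IDs matched, scn4ab held 82.0%, 85.6% and 57.1%, on levels of only 17.7, 11.7 and 9.27 CPM. The family lacks scn5laa and scn5lab, which had no match, and SCN10A, which had 23.6, 3.01 and 15.5 CPM. GJA5 (ENSDARG00000069450), a gap junction protein, led the matched connexins with 38.5% ± 6.59. The connexin entries cx43, cx36.7 and gjc1 had no match in the name table and are missing here. Calmodulin was spread over 6 IDs, with CALM2 at 31.5% ± 3.62 and calm3b at 29.4% ± 2.14.

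Natriuretic peptides, hormones that heart muscle releases on stretch, came mainly from nppa with 83.4% ± 3.69 of counts. Its paralog nppb held 16.5% ± 3.65 with 486, 677 and 620 CPM. The genes lay in the same order in all 3 libraries.

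Metabolic families differed in how far they were split. The nucleotide carrier SLC25A5 held 99.8% ± 0.0549, PKM (ENSDARG00000099730) 94.6% ± 0.431 of pyruvate kinase and GAPDH 90.7% ± 1.53 of its family. LDHB, the lactate dehydrogenase typical of heart, held 58.3%, 70.6% and 65.2%, with LDHA at 40.1%, 28.2% and 33.3%. Creatine kinase was led by the muscle type ckma with 59% ± 0.684, and fabp4a and FABP3, carriers of fatty acids, held 54.7% ± 0.187 and 43.6% ± 0.744. FABP3 held 0.66 counts for each count in the file with the same totals. COX4I1 and cox4i1l divided cytochrome oxidase subunit 4 almost evenly and swapped places. The first held 47.6%, 55.6% and 56.1% and the second 52%, 43.5% and 43%. In the joint family of subunits 6a and 7a, COX6A1 led in replicate 1 and cox6a1 in the others. COX6A1 held 1.90 counts for each count in the file with the same totals.

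Chaperone and transcription factor families ranged from a single leading gene to an even split. HSP90AB1 held 80.6% ± 1.12 of the HSP90 counts. HSPB7, a heart-enriched small heat shock protein, held 52.9%, 35.1% and 44.2% of its family and HSPB1 33.5%, 54.7% and 43.1%. Among GATA factors, GATA5 held 52.6% ± 4.47 with 225, 227 and 251 CPM, GATA6 26.2% ± 3.75 and gata4 8.36% ± 4.1. NKX2-5, a master regulator of heart muscle, held 98.3% ± 0.129 of the counts of 3 NK2 IDs and had 137, 132 and 139 CPM. HAND2 was the only HAND ID matched and had 332, 298 and 315 CPM. The T-box counts were spread over TBX18 with 27.6% ± 3.18, TBX20 with 24.8% ± 2.1 and TBX5 with 21.6% ± 3.63. MEF2C (ENSDARG00000029764), a muscle activator, held 46.0% ± 2.13 of the MEF2 counts and MEF2D 30.5% ± 3.45. Of the FOG genes, ZFPM1 held 59.9% ± 3.17 with 47.9, 35.7 and 51.6 CPM, ZFPM2 27.2% ± 1.40 and zfpm2b 12.9% ± 3.44.

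The share of the leading ID varied most in the beta globins, with an SD of 21.5 percentage points, followed by the sodium channels with 15.5 and the alpha globins with 11.6. Fish switch between larval and adult globin genes as they grow. In replicate 1 the alpha globin hbaa1 held 43.2% of its family, against 7.91% in replicate 2 and 6.31% in replicate 3, at 4924, 1893 and 950 CPM. The alpha globin hbae5 led in every library, with 47.5%, 67.4% and 67.9%. HBE1 (ENSDARG00000089087) held 59% of the beta globins there, against 18.8% and 14.4%, at 8476, 3766 and 1776 CPM. In the other direction, hbae1.3 had 409, 2547 and 1805 CPM, hbae3 had 325, 2226 and 1415 CPM, and HBE1 (ENSDARG00000087390) had 191, 1542 and 1262 CPM. As a share of the family, replicate 1 lay apart from the others in hbaa1 and in HBE1 (ENSDARG00000089087), while their CPM also differed between replicates 2 and 3.

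The 2 most abundant globins carry a limit. Against the file with the same totals, hbae5 held 0.879 and HBE1 (ENSDARG00000045143) 1.01 counts for each count, outside the range of most genes. Over the 5 alpha globin IDs between 0.4 and 0.6, hbaa1 held 82.3% in replicate 1 and 24.3% and 19.7% in replicates 2 and 3. Over the 3 beta globin IDs in that range, HBE1 (ENSDARG00000089087) held 90.1%, 62.7% and 52.7%. Replicate 1 differed from the others in the same way over these genes. Counts of near-identical globin genes are uncertain in any case, since reads that fit several copies can be split or dropped.

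**Figure D4:**
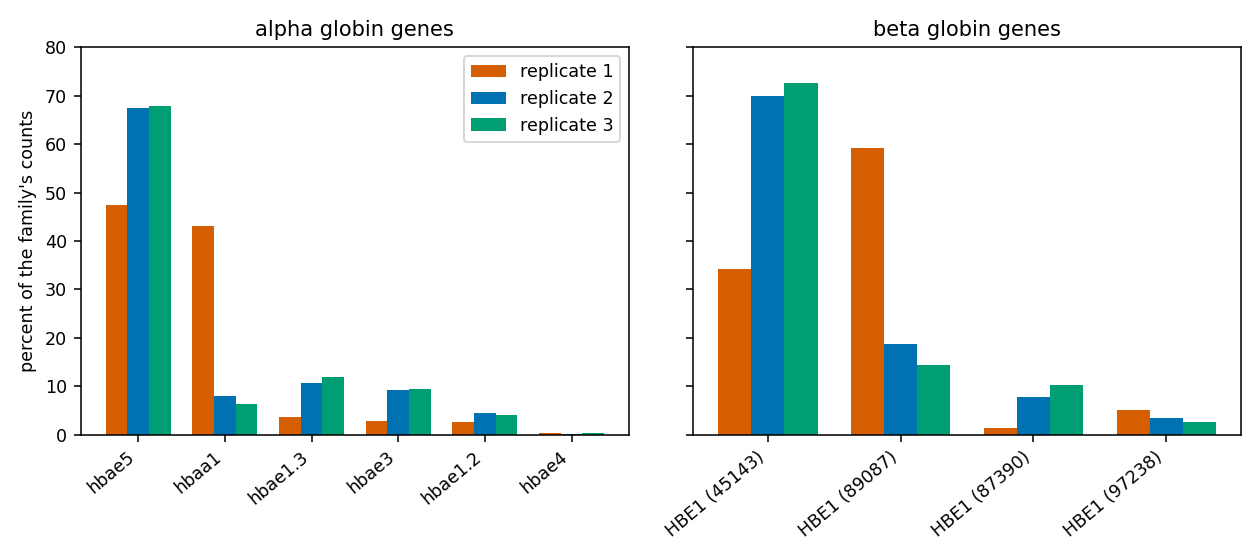
Percent of the family's counts held by each alpha globin (left) and beta globin (right) gene with a mean of at least 10 CPM. Each bar is 1 library, and the end of the ID follows where a symbol is shared. In replicate 1 hbaa1 holds 43.2% and hbae5 47.5% of the alpha globins and HBE1 (ENSDARG00000089087) 59% of the beta globins, while hbae5 and HBE1 (ENSDARG00000045143) hold most counts in the other 2 libraries.

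Variation between libraries was measured as the distance between the highest and lowest log2(CPM + 0.5) for 9146 genes with a mean of at least 10 CPM. The median distance was 0.47, or 1.39-fold. A distance of at least 1 was reached by 1215 genes, 13.3%, and a distance of at least 2 by 155 genes, 1.69%. Of those 155 genes, replicate 1 stood apart as the lowest in 74 and as the highest in 17, replicate 2 as the lowest in 62 and as the highest in 0, and replicate 3 as the highest or lowest in 1 each. With TMM scaling the count was 146, with replicate 1 lowest in 84 and highest in 12, and replicate 2 lowest in 44 and highest in 4. Without replicate 1, 13 genes differed by at least 2 between the remaining libraries.

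The libraries also differed in scale. Over the 16062 genes with a mean of at least 1 CPM, replicate 1 was the highest in 40% and the lowest in 34.7%, replicate 2 the highest in 27.8% and the lowest in 47.8%, and replicate 3 the highest in 32.2% and the lowest in 17.5%. With TMM scaling replicate 2 was the highest in 38.1% and the lowest in 38.5%. The median of the 9146 genes with a mean of at least 10 CPM stood at 4.93, 4.78 and 4.94 on the log2(CPM + 0.5) scale, and at 4.90, 4.87 and 4.89 after TMM. Counts of list members below are read against these shares.

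The widest differences were in genes low in replicate 1. The signal recognition particle RNA rn7sl1 had the widest, with 0.343, 79.0 and 309 CPM, the first from 3 counts. Digestive enzymes came next among the genes with a full name. The trypsin-family gene prss59.2 had 0, 92.9 and 29.6 CPM, and CELA1 (ENSDARG00000017314), an elastase, 0.114, 47.5 and 20.1 CPM. The carboxypeptidase CPA1 (ENSDARG00000021339) had 1.83, 42.4 and 24.9 CPM. The small nuclear RNA rn7sk had 0.114, 9.03 and 39.2 CPM. A set of 20 pancreatic enzyme IDs, gathered after their values had been seen, summed to 18.5, 720 and 287 CPM. All 7 IDs of the intestine and pancreas list with a mean of at least 10 CPM were past a distance of 2, against 1.69% of all genes. Each lay below 10 CPM in replicate 1 and passed that filter through the other libraries, so the filter itself favoured a wide distance.

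Epithelial genes followed the order of the digestive enzymes, and not that of rn7sl1 and rn7sk, which were highest in replicate 3. Of 22 skin and gill IDs with a mean of at least 1 CPM, 21 were lowest in replicate 1 and 20 highest in replicate 2. For all genes these shares were 34.7% and 27.8%. Past a distance of 2 were 8 of 15 IDs above 10 CPM, against 1.69% of all genes. The basal keratin krt5 had 127, 759 and 424 CPM and krt92 had 4.69, 41.9 and 26.7 CPM. The water channel AQP3 (ENSDARG00000003808) had 2.52, 25.1 and 13.8 CPM. The 5 keratins named krt among the 155 genes were all lowest in replicate 1.

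Cell cycle genes were low in replicate 1 and mostly highest in replicate 2. The proliferation list held 0.176%, 0.338% and 0.327% of counts, and 28 of its 29 IDs were lowest in replicate 1, under CPM and under TMM. Replicate 2 was the highest in 20 of the 29, or 25 under TMM, against 27.8% and 38.1% of all genes. The replication clamp PCNA had 353, 623 and 591 CPM, and TOP2A, which untangles DNA before mitosis, 63.0, 226 and 209 CPM. The mitotic kinase aurka had 1.60, 19.3 and 16.7 CPM. The median distance within this list was 1.70, against 0.47 over all genes.

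Fast skeletal muscle genes were highest in replicate 2. Of 37 skeletal muscle IDs 32 were highest there and 26 lowest in replicate 1, and under TMM 33 and 26. Of all genes 27.8% were highest in replicate 2 and 34.7% lowest in replicate 1, or 38.1% and 37.1% under TMM. The calcium buffers pvalb1 and pvalb2 had 87.1, 336 and 208 CPM and 88.7, 345 and 235 CPM. The light chain MYL1 (ENSDARG00000017441) had 56.1, 213 and 147 CPM. Macrophage genes were also mostly highest in replicate 2, in 19 of 23 IDs, but 11 were lowest in replicate 1 and 10 in replicate 3. The widest spread among them was that of apoeb, with 24.5, 105 and 74.4 CPM.

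Immediate early and stress genes held 0.233%, 0.257% and 0.259% of counts over 44 IDs, a sum led by the heat shock gene HSPB1 with 910, 1101 and 956 CPM. Single members varied more, as 10 of 30 IDs above 10 CPM reached a distance of 1, against 13.3% of all genes, and the median distance was 0.68, against 0.47. Of 40 IDs with a mean of at least 1 CPM, 21 were lowest in replicate 1 and 21 highest in replicate 3, or 23 and 17 under TMM. For all genes these shares were 34.7% and 32.2%, or 37.1% and 23.9% under TMM. The early response gene FOS had 4.35, 12.7 and 31 CPM and JUNB (ENSDARG00000104773) 8.81, 25 and 42.7 CPM, lowest in replicate 1 and highest in replicate 3. FOS held 1.81 counts for each count in the file with the same totals. Interferon response genes held 0.0301%, 0.0236% and 0.0270%, and none of the 5 IDs above 10 CPM reached a distance of 1. So few IDs cannot be told apart from the 13.3% of all genes.

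Clock genes set replicate 1 apart in the other direction. The clock list held 0.137%, 0.0764% and 0.0929% of counts, and 20 of its 31 IDs were highest in replicate 1 under CPM and under TMM. Replicate 2 was the lowest in 21 of the 31 under CPM, against 47.8% of all genes, and in 18 under TMM. PER1 (ENSDARG00000012499), a repressor of the clock, had 86.3, 14.6 and 19.8 CPM, and PER3 had 67.3, 9.55 and 16.8 CPM. The acetyl-CoA synthetase gene acss2l, outside the list, was also high in replicate 1 with 23.6, 1.87 and 5.73 CPM. The clock output factors dbpa and tefa had 39.5, 4.98 and 9.03 CPM and 93.6, 23.7 and 27.7 CPM. The paralogs nfil3-5 and nfil3-6, related to a mammalian repressor that shares binding sites with DBP, lay in opposite directions, with 6.64, 55.7 and 49.9 CPM for nfil3-5 and 40.6, 9.14 and 7.08 CPM for nfil3-6. The median distance within the list was 1.40. The labels give no time of day of collection.

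Of the 155 genes past a distance of 2, the 62 lowest in replicate 2 included some genes of muscle and of the outflow tract, given here as examples. Past that distance were 1 of 31 cardiomyocyte IDs above 10 CPM and 1 of 11 smooth muscle and outflow tract IDs. Over all genes the share was 1.69%. The elastin gene elnb, which gives the outflow tract its stretch, had 531, 37.2 and 237 CPM. TTN (ENSDARG00000000563) had 1601, 272 and 1123 CPM, CACNA1C had 214, 38.4 and 120 CPM and the myosin gene myh7ba 915, 189 and 476 CPM. The sodium channel genes SCN4B (ENSDARG00000099031) and SCN10A had 123, 17.8 and 64.0 CPM and 23.6, 3.01 and 15.5 CPM. The focal adhesion protein PXN (ENSDARG00000060766) had 54.3, 5.92 and 31.1 CPM. The zinc finger gene hivep2b had 73.2, 8.72 and 46.6 CPM. Each of these genes was highest in replicate 1. So were 26 of 37 cardiomyocyte IDs with a mean of at least 1 CPM, or 24 under TMM, against 40% of all genes. Of the 37, 23 were lowest in replicate 2, or 17 under TMM. Sarcomere genes were divided. MYH7 and MYBPC3 were highest in replicate 1 and lowest in replicate 2. The genes cmlc1, actc1a and tpm4a were among the 8 cardiomyocyte IDs highest in replicate 2. Of 28 IDs for the sarcoplasmic reticulum and excitation 20 were lowest in replicate 2, or 17 under TMM, against 47.8% and 38.5%. The list held 1.06%, 0.659% and 0.804% of counts. Matrix genes as a list did not show this order, since 14 of 27 fibroblast and mural IDs were lowest in replicate 2, against 47.8% of all genes, and col1a1a and POSTN (ENSDARG00000104267) were highest there.

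**Figure D5:**
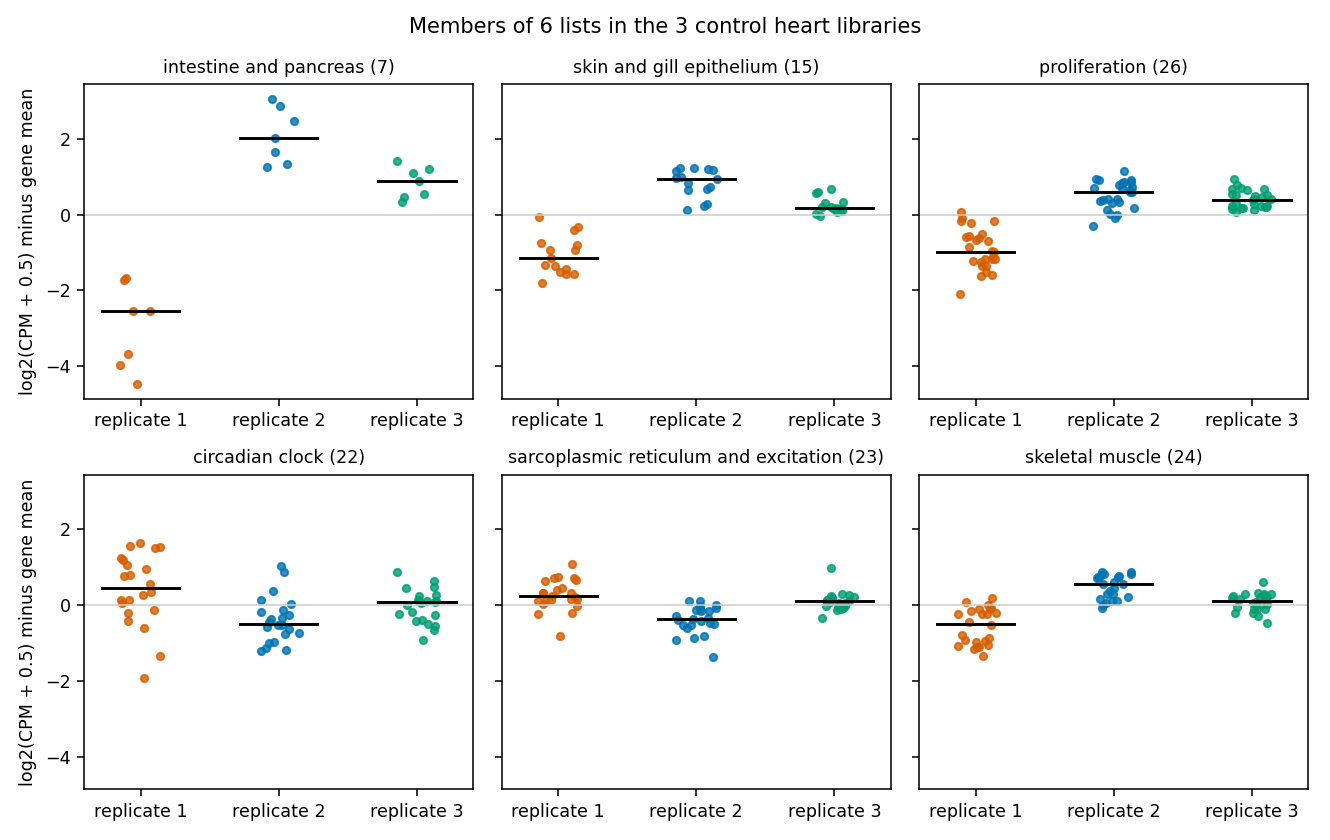
Members of 6 lists with a mean of at least 10 CPM (number in parentheses), each point a gene's log2(CPM + 0.5) in 1 library minus its mean over the 3, with a black bar at the median. Nearly all digestive, epithelial and proliferation genes lie below 0 in replicate 1, and most sarcoplasmic reticulum genes lie below 0 in replicate 2.

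Replicate 3 rarely stood apart. Among genes with a full name, those furthest above the others there were ATP1B1 (ENSDARG00000076833), a sodium pump subunit, with 5.49, 8.93 and 20.4 CPM, and CIT (ENSDARG00000089856) with 7.89, 14.8 and 29.4 CPM. TBX2 (ENSDARG00000006120), a repressor of chamber genes in the atrioventricular canal, had 18, 17.2 and 31.2 CPM. The globin HBE1 (ENSDARG00000097238) was lower there, with 741, 696 and 330 CPM. The distances of these 4 genes were below 2 on the log2 scale.

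At the other end stood genes that barely moved. Among 1369 genes with a mean of at least 100 CPM, lrrc15 had 126.6, 127.1 and 127.0 CPM, a spread of 0.34%. The asparagine tRNA ligase NARS1 had 119, 121 and 121 CPM. PGK2 (ENSDARG00000054191), a glycolytic kinase, had 621, 630.2 and 619 CPM, and the oxygen-regulated transcription factor HIF1A (ENSDARG00000034293) 173, 170 and 172 CPM. CCNG1, RNF10, cst3, ube2l3b, PDLIM5 and gnai1 completed the 10 steadiest genes, with a spread of at most 2.49%. They include no globin or mitochondrially encoded gene.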

How the data were processed

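Each deposited file lists the authors' unnormalised counts of reads for every gene of 1 library. The submitters' processing notes name HTSeq 0.6.1p1, Bowtie2 2.2.3, TopHat2 2.2.1, FastQC 0.11.5 and bcl2fastq, and the build GRCz10. Neither the annotation release nor the strand setting is given in the sources used here. The library protocol in the labels has no step that marks strand, so overlapping genes cannot be told apart.

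Lines for unassigned reads were left out of totals. In the 3 heart files they were no feature (42.4% to 47.5%), not unique (12.8% to 21.8%) and ambiguous (0.731% to 1.08%). CPM was computed over the 31953 gene IDs with Python 3.11.15 and pandas 2.3.3, and a name table gave symbols to 26121 of them. TMM factors and tagwise dispersions came from edgeR 4.0.16 in R 4.3.3, and size factors from DESeq2 1.42.0. Distances between libraries used log2(CPM + 0.5), a pseudocount of 0.5 and a minimum mean of 10 CPM. They were tried on simulated counts in which some genes were raised in a single library. Genes lowered in a single library were not simulated.

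Members and lists were chosen with earlier results of these data known. The sets of ribosomal, nuclear respiratory and pancreatic genes, and the spellings NKX2-5, DES and those within families, were added after the symbols or values had been seen. Named genes are the 30 highest by mean CPM, up to 6 per family, the 3 highest per list and those at 0, the 24 with the largest distance, the 5 furthest apart per library and direction and the 10 steadiest above 100 CPM. Others named are examples chosen after their values were seen. Provisional names were only counted, apart from a pair in the top 30. Counting error alone sets the floor of 3 counts. Alternatives were other scaling, pseudocounts, filters and leaving out each library.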

Additional observations from a re-analysis of the deposited data

How the results depend on the processing

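No paired analysis was possible because there is 1 group and no test. Leaving out 1 library at a time gave 13 to 143 genes with a distance of at least 2, against 155 with all 3: 13 without replicate 1, 52 without replicate 2 and 143 without replicate 3. A minimum mean of 1 CPM gave 539 genes and a minimum of 50 CPM gave 34, since these settings change the number of genes measured. A pseudocount of 2 gave 108, TMM and size factors 146 each, and 138 of the 155 genes were among the 155 with the highest edgeR dispersion. Without the mitochondrially encoded genes the top 10 held 10.9% and the top 100 held 31.7% of counts. With these genes and the globins taken out of the total, the cardiomyocyte list held 7.30%, endothelium 0.363%, fibroblast and mural genes 0.640% and erythrocyte genes 0.906%, as the smaller total and the missing globins set by construction. Leading paralogs held at least 75% in 27 families, or in 27 to 28 with 1 library left out, and at least 90% in 18. Shares per kilobase were not run, as no transcript lengths were at hand, so levels of genes of unlike length cannot be ranked. Depth limits genes under about 1 CPM, which rest on few counts.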
